A study of Mus musculus with 12 samples.

Results

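Interferon regulatory factors (IRFs) are the transcription factors that bind the interferon-stimulated response element and that control type I interferon, the genes it induces and the development of dendritic cells (DCs). The members described here are Irf1, Irf2, Irf3, Irf4, Irf5, Irf7, Irf8 and Irf9, chosen by gene symbol, which are 8 of the 55335 genes quantified in every library. RNA was sequenced from bone marrow-derived DCs (BMDCs), which are grown from mouse bone marrow in GM-CSF, a cytokine that drives precursors towards a monocyte-derived DC state. All mice were C57BL/6, 8 to 12 weeks old, of both sexes, and carried Rosa26-CreER, a Cre recombinase that works in any cell type once 4-hydroxytamoxifen is added. Wild-type cultures came from CreER mice with intact Ctcf, and knock-out cultures from CreER;CTCFfl/fl mice, whose Ctcf alleles are flanked by loxP sites. The 4-hydroxytamoxifen was given at the start of the culture, and the study's wording, which describes deletion in knock-out and not in wild-type cells, leaves it unclear whether wild-type cultures received the drug. After 6 days floating cells were harvested, and those carrying the surface marker CD11c were selected with microbeads as BMDCs. The selected cells were left untreated (WT and KO) or given LPS, a bacterial cell wall component, at 100 ng/ml for 3 h (WTL and KOL). Each of these 4 groups had 3 libraries.

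IRF3 and IRF7 are held in the cytosol until the kinases TBK1 and IKKε, downstream of TLR4 and its adaptor TRIF, phosphorylate them, after which they turn on Ifnb1, the interferon beta gene. Secreted interferon beta signals through its receptor to ISGF3, a complex that contains STAT2 and IRF9 and that raises the antiviral genes and Irf7 itself. IRF1 activates, and IRF2 mostly represses, genes with the same element, and IRF1 is itself induced by interferon gamma and NF-κB. IRF5 works with the adaptor MyD88 on inflammatory cytokine genes. IRF4 and IRF8 are the haematopoietic members: they bind DNA weakly alone and strongly beside PU.1 (Spi1) or BATF proteins, IRF8 being required for the cDC1 subset of DCs and IRF4 favouring cDC2 and monocyte-derived DCs.

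Libraries held 12769773 to 16586334 expected counts. Ctcf, the targeted gene, was at 1051, 987 and 975 normalized counts in WT and at 570, 562 and 516 in KO, where a normalized count is an expected count scaled to the same effective library size. With LPS it was at 886, 817 and 745 in WTL and at 563, 530 and 526 in KOL, so every CTCF-deficient library was below every wild-type one. WTL replicate 2 had 5.165% of its counts on ribosomal RNA genes, against at most 1.185% elsewhere, and WTL replicate 1 and KOL replicate 2 stood apart from their group on the third principal component. Of the marker lists, 8 of 8 general DC genes were expressed. Their summed TPM (transcript level relative to the total of the library) was 10509 to 11080 in WT, 7200 to 7507 in KO, 10189 to 14035 in WTL and 10333 to 15032 in KOL. Cd74, H2-Aa and H2-Ab1 made up most of these sums. In KO against WT 4 of the 8 were lower (Flt3, Cd209a, H2-Aa and H2-Ab1) and 1 was higher (Itgax), beside 22.4% and 22.2% of all genes tested. Markers of mast cells, B cells, T and NK cells and erythroid cells each summed to under 2 TPM in every library. Neutrophil markers, 6 genes of which Elane was under 1 TPM everywhere, summed to 365 to 389 TPM in WT and 191 to 223 in KO, and to 337 to 427 in WTL and 286 to 331 in KOL. S100a8 and S100a9 made up most of these sums. Ly6g was under 1 TPM in every WT, WTL and KO library and at 0.95 to 1.81 TPM in KOL. Macrophage markers summed to 470 to 509 TPM in WT, 582 to 606 in KO, 179 to 250 in WTL and 166 to 229 in KOL. Csf1r made up most of the untreated sums (mean 351 TPM in WT and 511 in KO). Of the 6 genes 3 were higher in KO than in WT, Csf1r among them, and 3 lower, Fcgr1 among them, beside 22.2% and 22.4% of all genes tested. Those of plasmacytoid DCs summed to 6.83 to 38.2 TPM over all libraries, Tcf4 being the largest part in each, with Siglech and Cox6a2 under 1 TPM. The part of these cells in the member values was not tested, and in bulk RNA fewer cells of a type and less RNA per cell cannot be told apart.

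The members lie on 6 chromosomes of mm10, here in the coordinates of GENCODE M21. Irf1 is at chr11:53770014-53778374 (plus strand), Irf2 at chr8:46739732-46847458 (plus), Irf3 at chr7:44997648-45002848 (plus) and Irf4 at chr13:30749226-30766976 (plus). Irf5 is at chr6:29526625-29541871 (plus), Irf7 at chr7:141262706-141266481 (minus), Irf8 at chr8:120736358-120756694 (plus) and Irf9 at chr14:55603571-55610030 (plus). All 8 are annotated as protein-coding genes, and 5 of them share exonic sequence with a neighbour: Irf1 with Gm17334, Irf3 with Bcl2l12, Irf5 with Tnpo3 and Irf7 with Phrf1 on the opposite strand, and Irf9 with Rnf31 on the same strand. Whether reads were counted by strand is not given in the sources used here. The Rnf31 level rose with LPS from a mean of 592 to 1878 normalized counts in wild-type cells, so the Irf9 counts carry some uncertainty from shared exons.

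Promoter sequence was read from RefSeq for the 250 bases before each annotated start, and all 8 members matched an entry. Irf1, Irf8 and Irf9 had 2 such windows each and the other members 1. Both Irf9 windows, chr14:55603735-55603984 and chr14:55604329-55604578, lie inside the GENCODE span of the gene and not upstream of it. Both strands were searched for the interferon-stimulated response element core (GAAA, any 2 bases, GAAA), the composite element at which IRF4 or IRF8 pairs with PU.1 (GGAA, any 2 bases, GAAA), the gamma-activated site of interferon gamma signalling (TTCNNNGAA) and the κB motif. The window of Irf2 and the first windows of Irf1 and Irf8 held matches. The second windows of Irf1 and Irf8, and those of Irf3, Irf4, Irf5, Irf7 and Irf9, held none of these letters. Shown first are the 3 windows with matches, then that of Irf4, which shares with Irf8 the binding partners but not the change under CTCF deficiency given later. Capitals mark the matched letters.
Irf1, GRCm38.p6 chr11:53769764-53770013, plus strand: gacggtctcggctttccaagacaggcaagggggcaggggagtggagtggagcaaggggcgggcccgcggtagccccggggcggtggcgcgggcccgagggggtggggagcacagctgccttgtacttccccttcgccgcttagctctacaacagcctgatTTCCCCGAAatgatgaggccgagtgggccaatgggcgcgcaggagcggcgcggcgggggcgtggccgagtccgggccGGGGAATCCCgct
Irf2, GRCm38.p6 chr8:46739495-46739744, plus strand: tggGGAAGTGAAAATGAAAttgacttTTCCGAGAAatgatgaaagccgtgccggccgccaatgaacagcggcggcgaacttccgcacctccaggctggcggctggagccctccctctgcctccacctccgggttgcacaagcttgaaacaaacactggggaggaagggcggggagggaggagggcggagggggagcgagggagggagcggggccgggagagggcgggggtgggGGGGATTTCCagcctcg
Irf8, GRCm38.p6 chr8:120736108-120736357, plus strand: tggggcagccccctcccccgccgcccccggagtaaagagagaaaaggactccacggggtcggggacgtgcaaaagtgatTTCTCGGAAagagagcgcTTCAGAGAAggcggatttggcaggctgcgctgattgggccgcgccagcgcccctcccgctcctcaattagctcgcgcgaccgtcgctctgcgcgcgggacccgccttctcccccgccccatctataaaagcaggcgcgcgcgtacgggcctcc
Irf4, GRCm38.p6 chr13:30748983-30749232, plus strand: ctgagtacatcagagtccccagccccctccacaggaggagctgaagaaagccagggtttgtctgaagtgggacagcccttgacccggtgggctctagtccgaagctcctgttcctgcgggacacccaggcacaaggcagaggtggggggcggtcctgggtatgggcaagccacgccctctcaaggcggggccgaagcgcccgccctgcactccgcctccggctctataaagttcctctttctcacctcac
In the Irf1 window the gamma-activated site letters TTCCCCGAA lay 90 to 82 bases before the start and a κB match 13 to 4 bases before it. The Irf2 window held all 4 motifs, with the composite element at 247 to 238 and the response element core at 241 to 232, which overlap, a gamma-activated site match at 224 to 216 and a κB match at 17 to 8. The Irf8 window held gamma-activated site letters at 171 to 163 and at 153 to 145 bases before the start. Among 32851 promoter windows of the same length, 2.98% held the response element core, 2.30% the composite element, 7.02% the gamma-activated site and 3.90% the κB motif. These are matches of letters, and no binding was measured here.

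The transcript make-up of the family changed with LPS and with CTCF deficiency. TPM, which is scaled by transcript length and can be compared between genes, summed over the 8 members to 580 ± 21.7 (SD, n = 3) in WT, 1135 ± 77.1 in WTL, 520 ± 11.2 in KO and 890 ± 46.4 in KOL. The 3 KOL libraries (846 to 939) were all below the 3 WTL libraries (1090 to 1224). In untreated cells Irf5 was the most abundant member, at 38.6% ± 1.69 of the family's TPM in WT and 54.0% ± 1.32 in KO, and Irf7 the least, at 3.44% ± 0.112 and 2.06% ± 0.160. After LPS the order turned over. Irf7 became the most abundant, at 27.2% ± 0.244 in WTL and 27.0% ± 1.89 in KOL, and Irf3 the least, at 2.60% ± 0.0156 and 3.21% ± 0.153. The difference between the LPS-treated genotypes lay in the middle of the order: in WTL it ran Irf7, Irf1, Irf5, Irf8, Irf9, Irf4, Irf2, Irf3, and in KOL Irf7, Irf5, Irf1, Irf4, Irf9, Irf8, Irf2, Irf3. Neighbours whose libraries overlapped in TPM were Irf8 and Irf9 in WTL, Irf3 and Irf8 in WT, and Irf8 and Irf3 in KO, and no neighbours overlapped in KOL. Irf4 moved from 73.9 TPM (69.1 to 82.4) in WTL to 115 (102 to 125) in KOL, and Irf8 from 117 (99.3 to 138) to 54.7 (50.2 to 62.4).

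**Figure D1:**
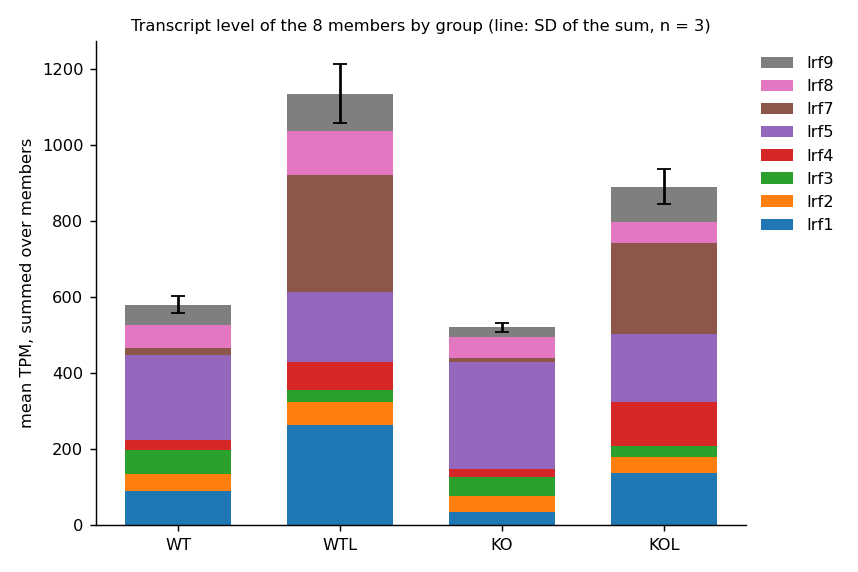
Stacked mean TPM of the 8 members in each group (n = 3), with the SD of their sum as a line. The sum is highest in WTL (1135 TPM) and lower in KOL (890 TPM), Irf5 fills the largest part of the WT and KO bars, and Irf7 and Irf1 widen after LPS.

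LPS raised most of the family in both genotypes. In WTL against WT, 7 of 8 members rose and 1 fell at an adjusted p below 0.05 (edgeR), beside 60.2% of the 14008 genes tested that changed, 30.0% upwards and 30.2% downwards. Irf1, Irf2, Irf4, Irf7, Irf8 and Irf9 rose by more than 2-fold, a size of rise that 12.6% of all genes reached. The median log2 fold change was 1.42 over the members and -0.02 over all genes. In KOL against KO, 6 of 8 rose and 1 fell, beside 67.5% of all genes called, 33.6% higher and 33.9% lower, and 4 rose by more than 2-fold, where 15.1% of all genes did. There the median was 1.38 over the members and -0.02 over all genes.

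CTCF deficiency lowered 3 members in untreated cells and 4 after LPS, with Irf1 and Irf7 lower in both. In KO against WT, Irf1, Irf7 and Irf9 fell, Irf5 rose and the other four did not pass the test, beside 44.6% of all genes called, 22.2% higher and 22.4% lower. The 3 that fell did so by more than 1.3-fold, as 17.2% of all genes did, and the median over the members was -0.15 against -0.01 over all genes. In KOL against WTL, Irf1, Irf2, Irf7 and Irf8 fell and Irf4 rose, beside 44.7% of all genes called, 21.4% higher and 23.3% lower, with a median of -0.21 over the members and -0.03 over all genes. Irf1 and Irf8 fell, and Irf4 rose, by more than 1.5-fold, where 12.5% of all genes did so in each direction. Members were thus called in 4 of 8 cases without LPS, close to the share of all genes, and in 5 of 8 with LPS. These comparisons share their samples with the LPS comparisons, so they are not independent of them. Library by library, the groups did not overlap for 8 of 8 members in WTL against WT (65.1% of all genes), 7 in KO against WT (64.2%), 6 in KOL against WTL (46.3%) and 7 in KOL against KO (71.2%).

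The LPS response itself differed between genotypes for 6 members. The difference of the responses, (KOL minus KO) minus (WTL minus WT) on the log2 scale, was above 0 for Irf1, Irf4, Irf7 and Irf9 and below 0 for Irf2 and Irf8, beside 17.4% of all genes called, 8.70% above 0 and 8.75% below. The sign describes folds and not final levels: Irf1, Irf7 and Irf9 had a larger fold in KO from a lower untreated level, whereas Irf4 started from a similar level and ended higher.

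**Figure D2:**
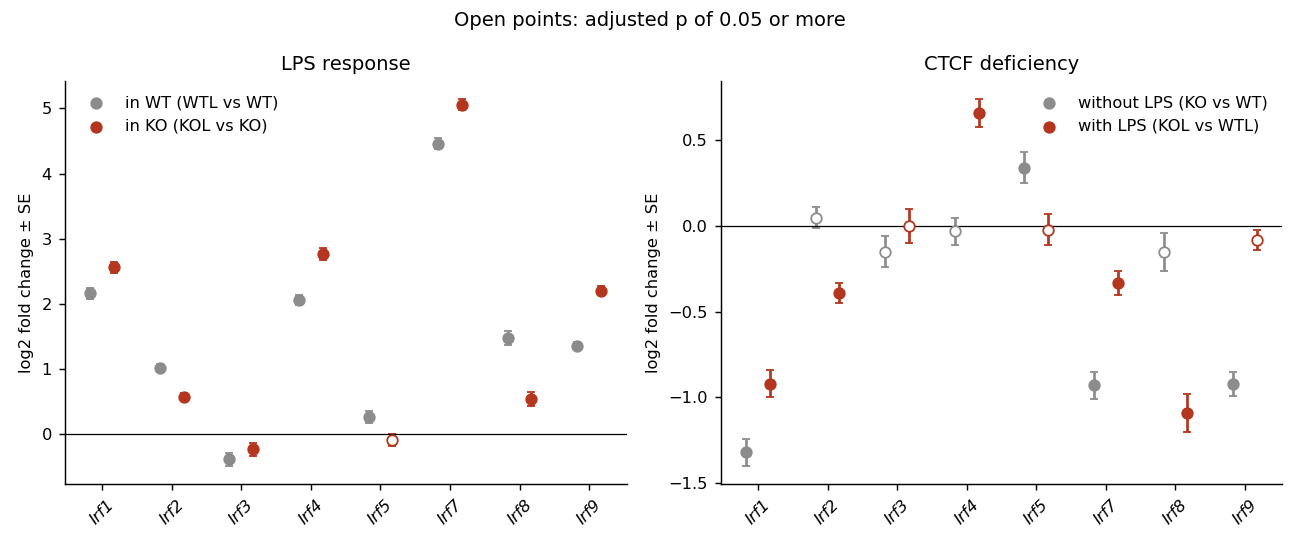
Log2 fold change with its SE (edgeR, 12 libraries) of each member for LPS in WT and in KO, left, and for CTCF deficiency without and with LPS, right, open points having an adjusted p of 0.05 or more. Irf7 shows the largest LPS response (4.46 in WT and 5.06 in KO), and on the right Irf4 passes the test above 0, and Irf8 and Irf2 below it, with LPS and not without it, while Irf9 lies below 0 without LPS and near it (-0.08) with LPS.

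Irf7, the interferon-inducible member that amplifies type I interferon, was at 325, 340 and 317 normalized counts in WT, 6804, 7469 and 7301 in WTL, 188, 161 and 167 in KO and 5685, 5898 and 5625 in KOL. No groups overlapped, and both CTCF-deficient groups lay below their wild-type counterparts. The rise with LPS was 21.96-fold in WT (log2 4.46 ± 0.08 SE, adjusted p = 1.2e-14) and 33.28-fold in KO (5.06 ± 0.08, adjusted p = 5.1e-15). Irf7 was thus the member that moved most with LPS in both genotypes. Without LPS it was 1.90-fold lower in KO (log2 -0.93 ± 0.08, adjusted p = 3.6e-07), and with LPS 1.25-fold lower (-0.33 ± 0.07, adjusted p = 0.0013). The responses differed by 0.60 ± 0.10 (adjusted p = 0.0014), and KO was at 52.6% of the WT mean while KOL was at 79.8% of the WTL mean.

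Irf3, the constitutive member that starts the interferon beta response, was at 551, 568 and 586 normalized counts in WT, 370, 424 and 503 in WTL, 487, 548 and 497 in KO and 412, 436 and 455 in KOL. Each LPS group was below its untreated group, and WTL spread widely enough to hold all KOL libraries. Irf3 fell by 0.39 ± 0.10 on the log2 scale in WTL against WT (adjusted p = 0.0028) and by 0.23 ± 0.10 in KOL against KO (adjusted p = 0.045). The second call was lost when any 1 of the KO or KOL libraries was left out (adjusted p = 0.051 to 0.16) and in DESeq2 (0.075). On the TPM scale both falls were larger, from a mean of 61.7 TPM in WT to 29.6 in WTL (log2 -1.04, adjusted p = 2.1e-06, limma) and from 49.7 in KO to 28.6 in KOL (-0.77, adjusted p = 1.9e-05), where the medians of all genes were -0.44 and -0.38. KO against WT gave -0.15 ± 0.09 (adjusted p = 0.20), which passed the test in edgeR on the 6 libraries (adjusted p = 0.024) and on TPM (-0.31, adjusted p = 0.018), and KOL against WTL 0.00 ± 0.10 (adjusted p = 0.98).

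Irf5, the member linked to MyD88, was at 4642, 4368 and 4181 normalized counts in WT, 4695, 5422 and 5715 in WTL, 5484, 5572 and 5613 in KO and 5840, 4550 and 5267 in KOL. All KO libraries were above all WT libraries, and the LPS groups overlapped each other. It was 1.26-fold higher in KO than in WT (log2 0.34 ± 0.09, adjusted p = 0.0087), a call lost without WT replicate 2 (adjusted p = 0.051) or 3 (0.069). The rise with LPS in WT was 1.20-fold (0.26 ± 0.09, adjusted p = 0.024). It was lost without WT replicate 1, 2 or 3 or WTL replicate 2 or 3, and on the TPM scale the value was -0.28 (adjusted p = 0.025), where the median of all genes was -0.44. No change passed the test in KOL against KO (-0.09 ± 0.09, adjusted p = 0.40) or KOL against WTL (-0.02 ± 0.09, adjusted p = 0.91) on normalized counts. On the TPM scale KOL against KO was -0.65 (adjusted p = 0.00014, limma), beyond the median of all genes there (-0.38).

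Irf9, the DNA-binding subunit of ISGF3, was at 1211, 1259 and 1328 normalized counts in WT, 3381, 3201 and 3190 in WTL, 657, 690 and 658 in KO and 3012, 3179 and 3025 in KOL. The KO libraries were at 52.8% of the WT mean, whereas the KOL libraries were at 94.3% of the WTL mean, just below the lowest WTL library. Irf9 was 1.89-fold lower in KO than in WT (log2 -0.92 ± 0.07, adjusted p = 5e-08) and differed by -0.08 ± 0.06 between KOL and WTL (adjusted p = 0.31). It rose 2.57-fold with LPS in WT (1.36 ± 0.06, adjusted p = 2.3e-10) and 4.60-fold in KO (2.20 ± 0.07, adjusted p = 1.7e-12). The difference of the responses, 0.84 ± 0.09, had the smallest adjusted p of the members (3.5e-05), and Irf9 gained more counts in KO (2404) than in WT (1991).

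Irf1, an activator induced early by interferon gamma and NF-κB, was at 1639, 1771 and 1534 normalized counts in WT, 6765, 7647 and 7652 in WTL, 658, 689 and 633 in KO and 4106, 3634 and 3916 in KOL. All 4 groups were apart, and Irf1 was the member lowered most by CTCF deficiency without LPS. It was 2.5-fold lower in KO than in WT (log2 -1.32 ± 0.08, adjusted p = 1.1e-08) and 1.89-fold lower in KOL than in WTL (-0.92 ± 0.08, adjusted p = 3.2e-07). It rose with LPS in both genotypes, by 4.46-fold in WT (2.16 ± 0.08, adjusted p = 1.8e-11) and 5.89-fold in KO (2.56 ± 0.08, adjusted p = 3.5e-12). The gain in counts was smaller in KO (3225) than in WT (5707) although the fold was larger. The difference of the folds (0.40 ± 0.11, adjusted p = 0.024) was lost without KO replicate 1 (adjusted p = 0.063), KO replicate 3 (0.075) or KOL replicate 1 (0.062). Gm17334, which overlaps Irf1 on the opposite strand, had mean levels of 111, 387, 49.3 and 175 normalized counts in WT, WTL, KO and KOL, the same order as Irf1 at a much lower level.

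Irf2, the antagonist of Irf1, was at 823, 821 and 814 normalized counts in WT, 1670, 1682 and 1592 in WTL, 845, 862 and 831 in KO and 1309, 1211 and 1244 in KOL. The untreated genotypes lay within a few percent of each other (KO against WT 0.05 ± 0.06, adjusted p = 0.59), and the KOL libraries lay between the untreated and the WTL libraries. Irf2 rose 2.01-fold in WT (log2 1.01 ± 0.06, adjusted p = 4.2e-09) and 1.48-fold in KO (0.57 ± 0.06, adjusted p = 1.7e-06). The responses differed by -0.44 ± 0.09 (adjusted p = 0.0035), and KOL was 1.31-fold below WTL (-0.39 ± 0.06, adjusted p = 0.00013). On the TPM scale the rise in KO was 0.05 (adjusted p = 0.69) where the median of all genes was -0.38, and the difference of responses was -0.34 (adjusted p = 0.13).

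Irf4, which favours cDC2 and monocyte-derived DCs, was at 1216, 1169 and 1204 normalized counts in WT, 4681, 4889 and 5397 in WTL, 1198, 1190 and 1116 in KO and 7827, 8740 and 7115 in KOL. The untreated genotypes overlapped, and every KOL library was above every WTL library. Irf4 was the only member to pass the test as higher in KOL than in WTL, by 1.58-fold (log2 0.66 ± 0.08, adjusted p = 1.2e-05). Its rise was 4.17-fold in WT (2.06 ± 0.08, adjusted p = 4.6e-11) and 6.76-fold in KO (2.76 ± 0.09, adjusted p = 2.2e-12), a difference of 0.70 ± 0.12 (adjusted p = 0.00095). Without LPS the value was -0.03 ± 0.08 (adjusted p = 0.77).

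Irf8, the factor required for cDC1, was at 1544, 1583 and 1599 normalized counts in WT, 3606, 4584 and 5032 in WTL, 1437, 1431 and 1401 in KO and 2331, 1898 and 1981 in KOL. WTL was the most variable group (CV 16.5%), with replicate 1 lowest, yet all WTL libraries were above all KOL libraries. KOL was 2.13-fold below WTL (log2 -1.09 ± 0.11, adjusted p = 1.5e-06), the largest fall of a member after LPS. Irf8 rose 2.80-fold in WT (1.48 ± 0.11, adjusted p = 2.6e-08) and 1.45-fold in KO (0.54 ± 0.11, adjusted p = 0.00048), a difference of -0.94 ± 0.15 (adjusted p = 0.00075). On the TPM scale the rise in KO was 0.03 (adjusted p = 0.82). Without LPS the value was -0.15 ± 0.11 (adjusted p = 0.29), although every KO library was below every WT library. On the 6 libraries of that comparison the fall passed the test in edgeR (-0.15, adjusted p = 0.0038) and in DESeq2 (-0.14, adjusted p = 0.022). The 7 cDC1 markers, mostly Naaa, summed to 288 to 308 TPM in WT, 328 to 350 in KO, 170 to 179 in WTL and 133 to 142 in KOL, with Cadm1 under 1 TPM in every library. The genes did not all follow the sum: with LPS in WT 2 were higher (Xcr1 and Tlr3) and 3 lower, in KO against WT 3 were higher and 1 lower (Itgae), and in KOL against WTL 0 were higher and 3 lower. The 6 cDC2 markers, mostly Ccl17, summed to 6754 to 6808 TPM in WT, 3471 to 3757 in KO, 10732 to 12647 in WTL and 7839 to 7977 in KOL. Of these, 3 were higher and 1 lower with LPS in WT, 1 higher (Sirpa) and 4 lower in KO against WT, and 1 higher (Sirpa) and 5 lower in KOL against WTL. Their part in the Irf8 and Irf4 values was not tested. Beside these marker counts, 60.2% of all genes were called with LPS in WT, 44.6% in KO against WT and 44.7% in KOL against WTL.

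**Figure D3:**
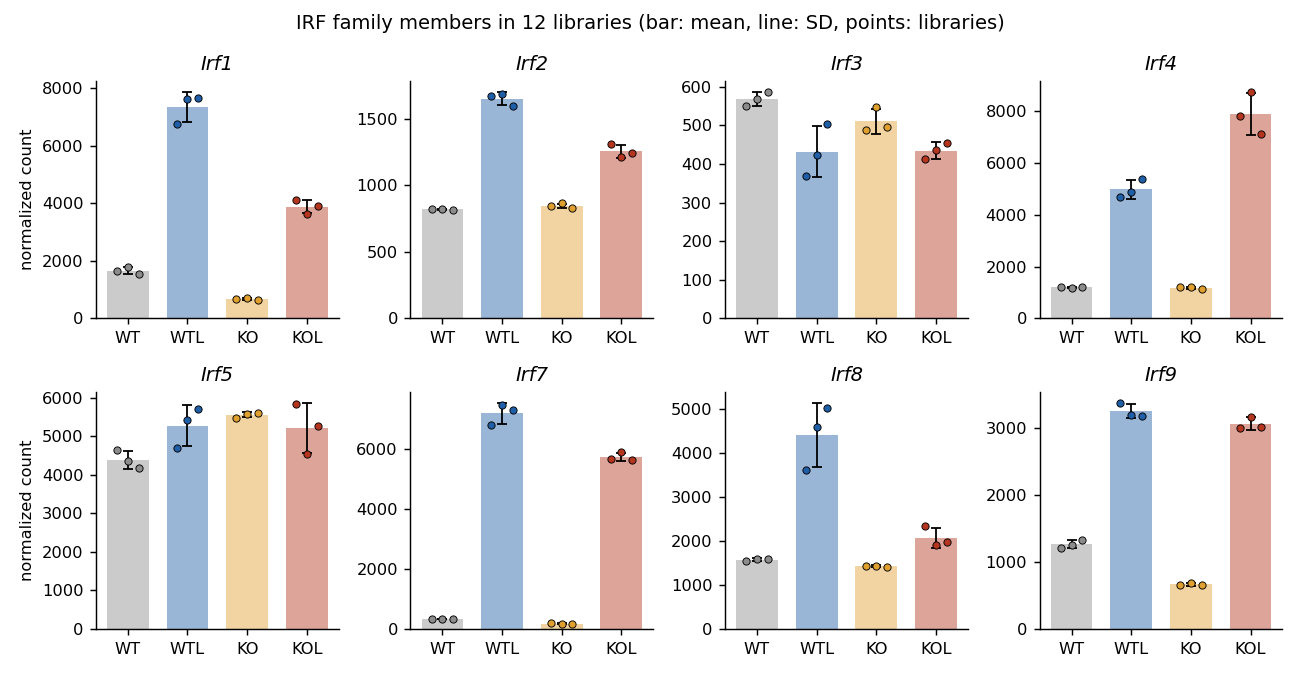
Normalized counts of the 8 members in the 12 libraries, with the mean (bar) and SD (line) of each group of 3 and axes starting at 0. Irf4 is highest in KOL (7115 to 8740), Irf8 is highest in WTL (3606 to 5032), Irf7 and Irf1 are lower in KO and KOL than in WT and WTL, and Irf3 and Irf5 vary least between groups.

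Ratios within a library do not depend on any scaling that all its genes share. The Irf4:Irf8 ratio of TPM was 0.436, 0.405 and 0.442 in WT and 0.434, 0.441 and 0.434 in KO, so that Irf8 was the more abundant in both. With LPS the WTL libraries gave 0.706, 0.607 and 0.596, and the KOL libraries 1.88, 2.49 and 1.97, so Irf4 exceeded Irf8 in the KOL libraries and in no other. KOL was 3.31-fold above WTL (log2 difference 1.73) and 4.81-fold above KO (2.27). The Irf1:Irf2 ratio, of activator to repressor, was 1.85, 1.95 and 1.99 in WT, 3.73, 4.83 and 4.63 in WTL, 0.821, 0.889 and 0.767 in KO and 3.40, 2.93 and 3.34 in KOL. Irf2 exceeded Irf1 in the KO libraries alone, and KOL remained below WTL. The Irf7:Irf3 ratio was 0.328, 0.328 and 0.314 in WT, 10.6, 10.4 and 10.4 in WTL, 0.248, 0.176 and 0.232 in KO and 8.08, 9.32 and 7.89 in KOL. Both CTCF-deficient groups were below their wild-type counterparts. Over 12 tests of ratios, groups were apart in all but Irf4:Irf8 in KO against WT, whose exact two-sided permutation p was 0.90. Taken from normalized counts, that log2 difference was 0.11 with the groups apart (exact permutation p = 0.1). Each of the others had an exact permutation p of 0.1, the smallest that 3 against 3 can give, and 0.11 after Benjamini-Hochberg adjustment, so this exact test could not take any ratio past 0.05.

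**Figure D4:**
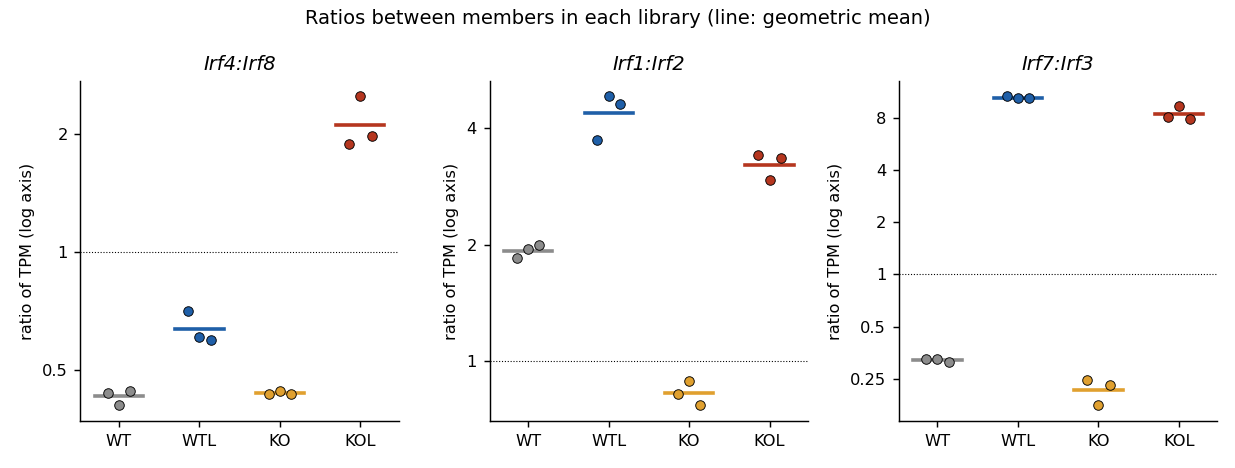
Ratio of TPM between members in each library on a log axis, with the geometric mean of each group as a line and a ratio of 1 dotted. The Irf4:Irf8 ratio is above 1 in the 3 KOL libraries (1.88 to 2.49) and below 1 in the other libraries, and the Irf1:Irf2 ratio is below 1 in the 3 KO libraries.

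Irf1, Irf2, Irf4, Irf7, Irf8 and Irf9 ran together over the 12 libraries, and Irf3 and Irf5 did not follow them. As a description over groups that differ strongly by LPS, Pearson's r of log2(normalized count + 1) was taken between members. Among those that ran together it reached from 0.65 between Irf4 and Irf8 to 0.98 between Irf7 and Irf9, with 0.97 between Irf1 and Irf9. For Irf5 with any other member it lay between -0.29 and 0.29. Irf3 ran opposite to all the others (-0.80 to -0.29). Among 9337 other genes with a mean of at least 100 normalized counts, the most like Irf7 were Zbp1, a sensor of nucleic acids that triggers necroptosis, and Usp18, which removes ISG15 and restrains the interferon receptor (r = 0.999 each). Those most like Irf9 were Xaf1 and Jag1, a Notch ligand (0.996 each), and those most like Irf1 were Plscr1 (0.997) and Serpinb9b (0.996). Irf4 ran with Gnb4 (0.997) and Cd86, a co-stimulatory molecule (0.996), Irf8 with Ppp2r1a (0.987) and Blnk, an adaptor of antigen receptor signalling (0.985), and Irf2 with Plet1 (0.997) and Sdc1 (0.993). The nearest genes to Irf3, Limk2 (0.930) and Ppcdc (0.922), and to Irf5, Adra2a (0.953) and Jund (0.940), were less like them.

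Genes around the family in the pathway were grouped into 4 lists of 82 genes in all, each tested in the same fit. The partners with which IRFs bind comprised 13 genes. Stat2, which joins IRF9 in ISGF3, was at 1962, 1991 and 1970 normalized counts in WT, 942, 898 and 907 in KO, 10576, 9840 and 9807 in WTL and 7736, 8680 and 7362 in KOL. Both CTCF-deficient groups lay below their wild-type counterparts. It was lower in KO (log2 -1.11 ± 0.07, adjusted p = 1.9e-08), with a smaller gap in KOL (-0.35, adjusted p = 0.00096) and a larger rise in KO than in WT (difference 0.76 ± 0.10, adjusted p = 0.00014). Stat2 and Irf9 were thus both lower in untreated KO cells, and Stat2, but not Irf9, also passed the test in KOL against WTL.

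Among the partners of IRF4 and IRF8, Spi1 was at 3588 to 4110 normalized counts in KOL and 4750 to 4994 in WTL (log2 -0.36, adjusted p = 0.00064). Batf3, needed for cDC1, was higher in both CTCF-deficient groups, by 0.64 without LPS (adjusted p = 0.0051) and 0.74 with it (adjusted p = 0.0027). Ikzf1 had 2767 to 3270 normalized counts in WTL and 1736 to 1812 in KOL (-0.78 ± 0.07, adjusted p = 7.6e-07), and its LPS response was smaller in KO, as was that of Irf8 (difference -1.16 ± 0.10, adjusted p = 6e-06). Spib, a relative of PU.1, was lower in KO than in WT (-1.30 ± 0.22, adjusted p = 0.00025). Of the 13 partners, 3 were higher and 3 lower in KO against WT (median 0.02), beside 44.6% of all genes called. In KOL against WTL 2 were higher and 7 lower (median -0.18), beside 44.7% of all genes called. The 7 were 5 to 6 when 1 library was left out. With LPS, Batf2 rose most in WT (3.71 ± 0.13) and Irf2bp2, a corepressor that binds IRF2, fell most (-2.09 ± 0.17, adjusted p = 6.8e-08).

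The upstream list held 28 genes from TLR4 and its adaptors to the interferon receptor and its inhibitors. Ifnb1 had 2, 4 and 5 expected counts in WT and 0 in each KO library, too few to give a fold. Normalized counts reached 136, 148 and 162 in the WTL libraries, and 117, 91.3 and 145 in the KOL ones, groups that overlapped (log2 -0.33 ± 0.18, adjusted p = 0.15). Against the floor of 3 counts per library, Ifnb1 was at least 40.9-fold higher in KOL than in KO. Of the 28 genes, 19 rose and 6 fell with LPS in WT (median 0.75), beside 30.0% and 30.2% of all genes. Socs3 (4.38 ± 0.08) was beside Ifnb1 at the top, and Ifngr1 (-1.46 ± 0.08) and Tlr4 (-1.41 ± 0.17) fell most. In KO against WT 9 were higher and 7 lower (median -0.09), beside 44.6% of all genes called. The 7 include Ifnb1, whose counts were too few to give a fold. The number higher was 5 without WT replicate 3 or KO replicate 2 or 3, 6 without each of the others, and 5 on TPM, and the number lower was 6 to 7 without any 1 library and 12 in edgeR on the 6 libraries. Those called included Usp18 (-1.0 ± 0.09, adjusted p = 5.3e-07) and Ifnar1, a chain of the receptor (0.65 ± 0.12, adjusted p = 0.00057). In KOL against WTL 2 were higher, Ifngr1 (0.38) and Mavs (0.34), and 10 lower (median -0.19), beside 21.4% and 23.3% of all genes. The falls were led by Myd88, the adaptor upstream of Irf5 (-0.77 ± 0.06, adjusted p = 1.3e-07), and Socs3 (-0.76 ± 0.06, adjusted p = 3.5e-07).

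The ISGF3 targets were 20 antiviral genes. All 20 rose with LPS in WT (median 4.31) and in KO (median 4.84), beside 30.0% and 33.6% of all genes, Rsad2 and Cxcl10 most in WT (5.60 each). In untreated cells 15 of 20 were lower in KO and 1 was higher, beside 22.4% and 22.2% of all genes. The median was -0.73, beside -0.01 over all genes. Oas2, a sensor of double-stranded RNA, lay at 97.7 to 115 normalized counts in WT and 17.3 to 22.2 in KO (-2.46 ± 0.14, adjusted p = 4e-09), and Oas3 was lower by a similar size (-2.00 ± 0.10, adjusted p = 1.7e-09). The exception was Ifih1, the RNA sensor MDA5, which was higher in KO (1.09 ± 0.11, adjusted p = 2.2e-06). After LPS the gap was smaller for most of them: 10 were lower and 3 higher in KOL than in WTL (median -0.28), beside 23.3% and 21.4% of all genes. The difference of responses was above 0 for 12, beside 8.70% of all genes, and below 0 for 1, beside 8.75%, namely Cxcl10 (-0.34 ± 0.10, adjusted p = 0.034). This last count did not hold up: it was 0 with the replicate block, on TPM and without any 1 of 9 of the 12 libraries, 1 without WTL replicate 1, and 2 without WTL replicate 3 or KOL replicate 2. Oas2 remained lower in KOL (-1.25 ± 0.08, adjusted p = 1.3e-08), as did Cxcl10 (-1.04 ± 0.07, adjusted p = 2.9e-08).

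The other IRF targets were 21 genes of antigen processing, cytokines and effector functions. All 21 rose with LPS in WT (median 2.09), Il27 most (7.44 ± 0.14), and 18 rose in KO (median 1.80), beside 30.0% and 33.6% of all genes. In KO against WT 6 were higher and 6 lower (median -0.13), beside 22.2% and 22.4% of all genes. The number higher was 4 without any 1 WT or KO library. Il12b, the shared subunit of IL-12 and IL-23, fell most (-2.19 ± 0.21, adjusted p = 1.1e-06), with 109 to 120 normalized counts in WT and 16.1 to 32.6 in KO. With Il12a, which had at most 3 counts in each KO library, set to no change, the median of the list was -0.08. In KOL against WTL 10 were lower and 4 higher (median -0.35), beside 23.3% and 21.4% of all genes, the 4 being 2 without WTL replicate 1 or KOL replicate 1. Nos2, the inducible nitric oxide synthase controlled by IRF1, was at 1501 to 1694 normalized counts in WTL and 343 to 413 in KOL (-2.07 ± 0.11, adjusted p = 4.5e-09), and B2m, a part of MHC class I, was higher in KOL (0.41 ± 0.07, adjusted p = 0.00019).

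**Figure D5:**
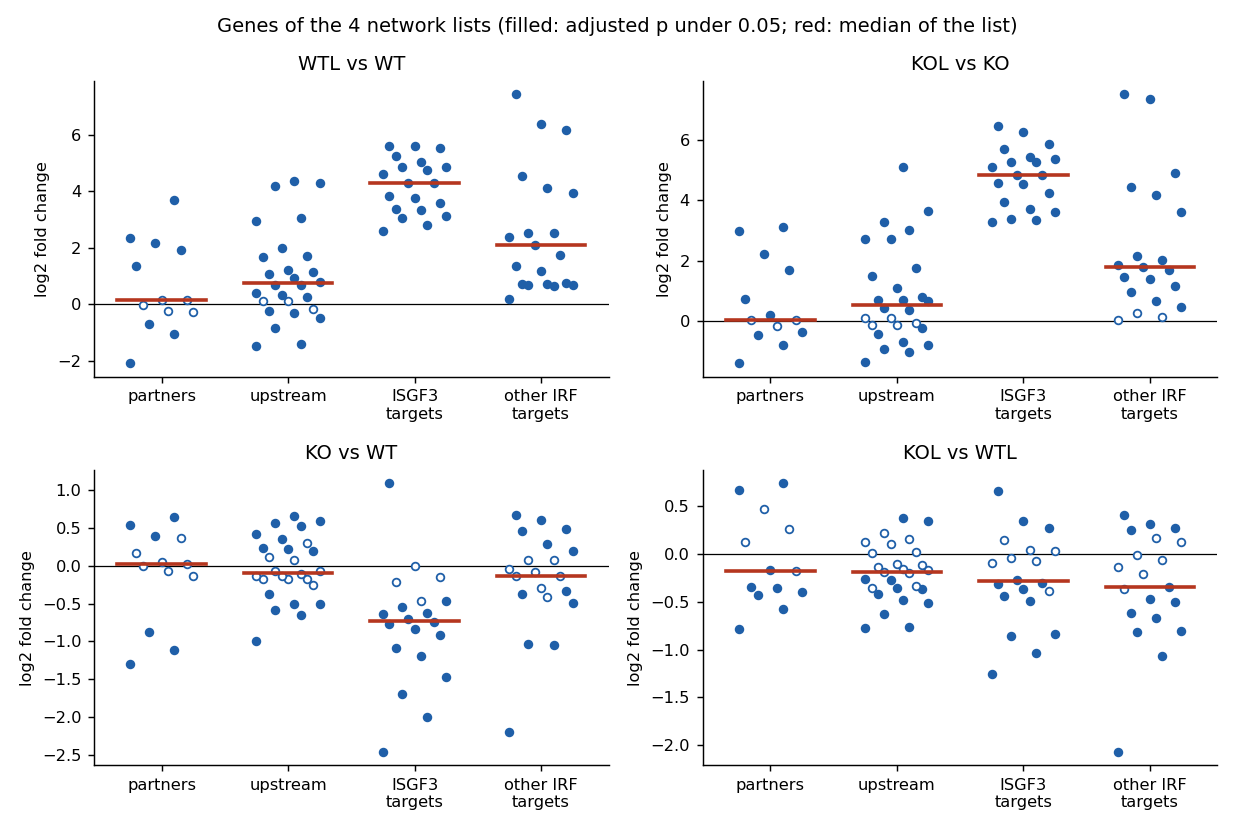
Log2 fold change of each gene of the 4 lists in 4 comparisons, filled where the adjusted p was below 0.05, with the median of each list in red. Ifnb1 and Il12a, near 0 counts in KO, are not drawn. The ISGF3 targets lie above 0 with LPS in both genotypes (medians 4.31 and 4.84) and mostly below 0 in KO against WT (median -0.73), closer to 0 in KOL against WTL (median -0.28).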

How the data were processed

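RNA was measured in 12 libraries, labelled as biological triplicates of 4 groups, and groups and replicate numbers were taken from the sample titles. The authors aligned reads to mm10 with STAR (version 2.5.1 in the submitters' processing notes) and quantified genes with RSEM. They deposited an expected count per gene and library, an estimate that can be fractional, and a TPM, which is scaled to one total and keeps no depth. The paper's methods name a poly(A) kit and the labels ribosomal RNA depletion. Whether the triplicates came from separate mice is not given in the sources used here, so p-values measure the spread between these libraries. For each gene that spread was estimated once over the 4 groups, although replicates differed more after LPS. The chi-square per degree of freedom of the counts of replicate pairs was 1.7 to 1.92 in KO and 3.33 to 4.75 in WT. It was 8.78 to 31.38 in KOL and 31.11 to 86.04 in WTL.

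Here expected counts were rounded and normalized by TMM in edgeR 4.0.16 (R 4.3.3). For normalized counts, each library was rescaled to the mean effective size of all libraries. The quasi-likelihood test was run in one fit of 12 libraries without covariates, on 14008 genes kept by filterByExpr, with Benjamini-Hochberg adjustment over all of them. The SE of a log2 fold change was derived from that test, as its absolute value divided by the square root of the F statistic. "Rose", "fell", "higher" and "lower" with a p mean an adjusted p below 0.05. Larger changes were counted past folds of 2 (LPS), 1.3 (KO against WT) and 1.5 (KOL against WTL). Scripts were tested on simulated data. Ratios used TPM and an exact permutation test. GENCODE M21 was matched by 54587 gene identifiers.

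Members and gene lists were chosen with earlier results of these data known. Named genes are the members, Ctcf, the 2 genes most like each member, Ifnb1, Stat2, Batf3, Spi1 and, drawn from each list, the 2 largest rises and falls per comparison among genes past the test. The text gives a selection of these, and some genes that the rule names are not reported here. Overlapping neighbours were named for their position. Alternatives were DESeq2 1.42.0, edgeR and DESeq2 on 6 libraries, DESeq2 size factors, no filter on low counts, a minimum of 10 counts in every library, the replicate number as a block, limma 3.58.1 on log2(TPM + 1) or log2(TPM + 0.1), and leaving out each library. A median-centred limma fit on log2(TPM + 1) was added after seeing the data.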

Additional observations from a re-analysis of the deposited data

Results flagged for a closer look

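The LPS response differed between genotypes, by a test of the difference itself, for 6 of the 8 members, beside 17.4% of all genes. The log2 difference (KO minus WT) was 0.40 for Irf1, 0.70 for Irf4, 0.60 for Irf7, 0.84 for Irf9, -0.44 for Irf2 and -0.94 for Irf8, with adjusted p of 0.024, 0.00095, 0.0014, 3.5e-05, 0.0035 and 0.00075 (edgeR). The calls for Irf1 and Irf2 were lost under some of the alternatives given below.

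Of the partners, the response was larger in KO for Stat2 (0.76) and smaller for Ikzf1 (-1.16) and Batf2 (-0.71). The difference was also called for Spib (1.77) and Spi1 (-0.53). For Spib it joined a fall with LPS in WT (-1.05) to a rise in KO (0.72). Spi1 did not pass the test with LPS in WT (0.16, adjusted p = 0.051, edgeR) and fell in KO (-0.36, adjusted p = 0.00029). Of the upstream genes the response was larger for Usp18 (0.88) and smaller for Socs3 (-1.11) and Ikbke (-0.89), the gene of the kinase IKKε. Of the ISGF3 targets it was larger for Oas2 (1.21) and Oas3 (1.16) and smaller for Cxcl10 (-0.34). Of the other targets it was larger for Il12b (1.11) and Cst3 (0.62) and smaller for Nos2 (-2.02) and Il18bp (-0.68). Groups of 3 libraries are too small for a test of a single outlying library.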

How the results depend on the processing

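Some member values kept their direction and their side of 0.05 under all alternatives run. These were the lower Irf1, Irf7 and Irf9 in KO, and the lower Irf1, Irf2, Irf7 and Irf8 and higher Irf4 in KOL. The differences of response of Irf4, Irf7, Irf8 and Irf9 also did so. So did the rises with LPS of Irf1, Irf4, Irf7 and Irf9 in both genotypes. In WT this also held for the rises of Irf2 and Irf8 and the fall of Irf3. The rises of Irf2 and Irf8 in KO were lost on TPM (adjusted p = 0.69 and 0.82, limma). The higher Irf5 in KO was lost without WT replicate 2 or 3 (adjusted p = 0.051 and 0.069, edgeR). The difference of response of Irf1 was lost without KO replicate 1 or 3 or KOL replicate 1 (0.062 to 0.075, edgeR) and on median-centred TPM (0.065, limma). That of Irf2 was lost on TPM (0.13 and 0.14, limma). TPM lowered the median of all genes after LPS, to -0.44 in WTL against WT and -0.38 in KOL against KO, and split the calls of all genes in WTL against WT into 1710 higher and 7544 lower where the normalized counts gave 4209 and 4224. On that scale (log2(TPM + 1) and log2(TPM + 0.1) alike) Irf5 in WTL against WT turned to -0.28, Irf5 in KOL against KO became -0.65 (adjusted p = 0.00014), and 2 members were lower in each LPS comparison, 1 in the difference of responses. The TPM values in WTL against WT were 0.39 for Irf2, 0.84 for Irf9, 0.94 for Irf8 and -1.04 for Irf3. Median-centring the TPM, added after seeing the data, gave 0.22 for Irf5. Values near 0 changed sign without passing the test: Irf2 in KO against WT to -0.15 on TPM and -0.02 on centred TPM, Irf3 in KOL against WTL to -0.05 on TPM (leaving out 1 library gave -0.09 to 0.13), and Irf5 in KOL against WTL to 0.01 in DESeq2 and 0.02 in edgeR on 6 libraries and 0.03 on centred TPM (leaving out 1 library gave -0.10 to 0.07). The Irf4:Irf8 log2 ratio in KO against WT ranged from -0.01 to 0.05 when a library was left out and was 0.11, with groups apart, on normalized counts.

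The number of members lower in KO against WT was 5 in edgeR on 6 libraries, which added Irf3 (adjusted p = 0.024) and Irf8 (0.0038), and the number higher was 0 to 1 when a library was left out, Irf5 being the 1. The number lower in KOL against KO, which is Irf3, was 0 in DESeq2 on 12 or 6 libraries, 0 with DESeq2 size factors and 0 to 0 when a library was left out. Of the 82 network genes, 19 were lower in WTL against WT and 21 in KOL against KO on TPM (9 and 11 in counts). In KO against WT 12 were higher on log2(TPM + 1) (19 in counts). The number with a difference of responses below 0 was 9, 8 and 11 on log2(TPM + 1), log2(TPM + 0.1) and centred TPM (17 in counts). It was 9 to 23 when a library was left out: 9 without WT replicate 1 or 2 and 11 without WT replicate 3 or KO replicate 1. The cause of these changes was not tested.

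Replicate numbers did not pair the libraries (correlations of deviations -0.286 to 0.112). With the replicate number as a block, the members called were 7 higher and 1 lower in WTL against WT, 1 and 3 in KO against WT, 1 and 4 in KOL against WTL, 6 and 1 in KOL against KO, and 4 and 2 for the difference of responses, as without it. The exact test of ratios, at 3 libraries against 3, could not pass 0.05, and Ifnb1 and Il12a were too low in untreated cells for a fold.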
